A study of Schizosaccharomyces pombe with 12 samples.

Results

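The LatA response of *rpb1-12XS2ACTD* cells was measured on 6 of the 12 arrays of the series, 3 hybridized with RNA of LatA treated cells and 3 with RNA of DMSO treated cells. The arrays were chosen by the strain and drug that their labels give, and all 4875 *S. pombe* probe sets entered the comparison. The *rpb1* gene encodes the largest RNA polymerase II subunit, and in *rpb1-12XS2ACTD* cells it gives that subunit a carboxy terminal domain (CTD) of 12 heptad repeats, with alanine in place of serine 2 in each. The other 6 arrays hold the same treatments of *rpb1-12XCTD* cells, whose 12 repeats are of wild-type sequence. Both *rpb1* alleles are marked with *ura4* in cells of mating type h- that also carry mutations in *ura4* and *leu1*, and the strain list gives 1 strain per genotype. All cells therefore had a shortened CTD, and cells with a full-length CTD were not analysed here. Cultures in YES, a rich medium, at 30 °C received 0.5 µM LatA (latrunculin A) or its solvent DMSO for 3 h, with 3 biological replicates per group.

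The CTD is a tail of repeated heptads through which RNA polymerase II recruits the factors that process and export its transcripts. Serine 2 of the heptad is phosphorylated while the polymerase elongates, in fission yeast in large part by the cyclin dependent kinase Lsk1p with its cyclin Lsc1p and the subunit Lsg1p. LatA binds actin monomers and so weakens actin filaments, which form the cytokinetic ring, the endocytic patches and the cables of the cell. Fission yeast answers many stresses with a common program, the core environmental stress response (CESR), in which genes for protection and repair are induced (CESR-Up) and genes for growth and ribosome production are repressed (CESR-Down).

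Each value is the log2 signal of a probe set minus that probe set's median on all 12 arrays, so 0 marks that median and the levels of different genes cannot be set against each other. The mutated residue is not measured on these arrays, and no gene was deleted whose value could check the labels. The 3 LatA arrays correlated with each other at 0.81 to 0.89 over all probe sets. DMSO replicates 2 and 3 correlated at 0.85, whereas DMSO replicate 1 correlated with them at 0.30 and 0.45 and deviated most from its group, with an SD of 0.228 against 0.123 and 0.153. Results that rest on this array are given with and without it. Array medians of the 6 arrays lay between −0.03 and 0.04.

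A gene was called changed where its adjusted p, from limma with Benjamini-Hochberg adjustment over all probe sets, was under 0.05 and its change exceeded 1.5 fold. LatA changed 561 probe sets in *rpb1-12XS2ACTD* cells, which is 11.5% of those tested. Of these, 299 (6.13%) rose and 262 (5.37%) fell, and 86 rose and 39 fell by more than 2 fold. Without regard to fold, 1625 of the 4875 probe sets had an adjusted p under 0.05 from limma, and 2131 had an unadjusted p under 0.05. The LatA and DMSO arrays did not overlap for 559 of the 561, and they did not overlap for 2769 (56.8%) of all probe sets. Without DMSO replicate 1 the counts were 281 that rose and 222 that fell, and 434 of the 561 were still called. Without LatA replicate 3 the number that fell was 181. A total of 366 probe sets, 217 that rose and 149 that fell, were called whichever single array was left out.

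**Figure D1:**
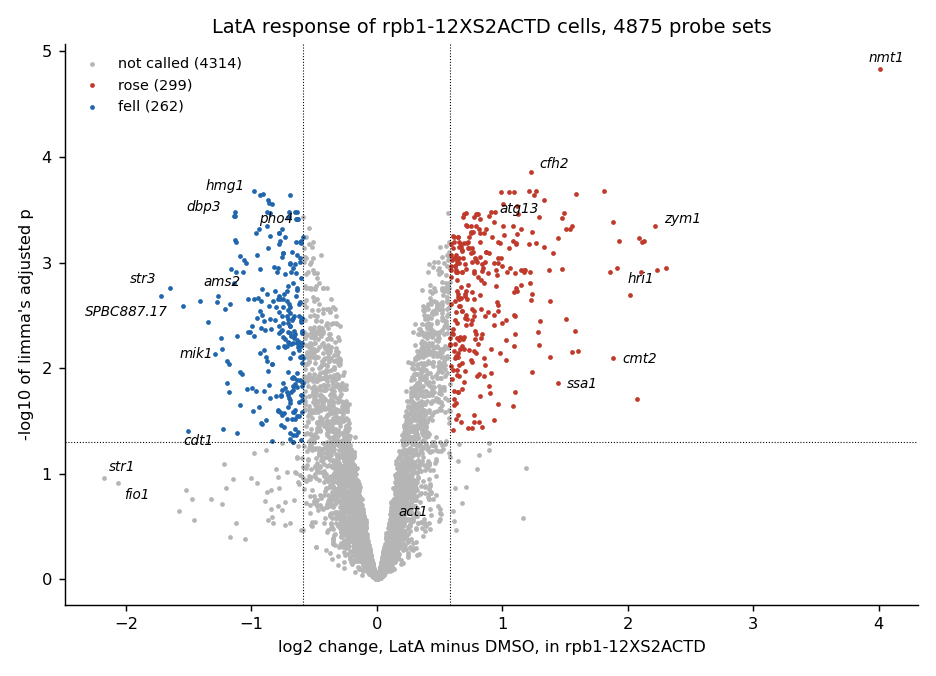
Each point is 1 probe set, with its log2 change (LatA minus DMSO in rpb1-12XS2ACTD cells) on the horizontal axis and −log10 of limma's adjusted p on the vertical axis, and dotted lines at an adjusted p of 0.05 and at 1.5 fold. The 299 probe sets that rose are red, the 262 that fell are blue, and nmt1 stands alone at 4.01, while str1 and fio1 lie far to the left below the threshold.

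The largest change of all was in *nmt1*, which encodes an enzyme for the pyrimidine part of thiamine and is known for its strong repression by thiamine in the medium. *nmt1* read 4.94, 4.19 and 4.33 in LatA treated cells, against −0.08, 0.67 and 0.85 in DMSO treated cells. The lowest LatA value was thus over 3 log2 units above the highest DMSO value, and the change was 4.01 ± 0.24 (SE, n = 3 per group), or 16.1 fold, with an adjusted p of 1.48e-05 from limma. In *rpb1-12XCTD* cells the same gene read 0.08, −0.09 and −0.27 with LatA, against −0.69, −0.63 and −0.47 with DMSO, a change of 0.50 that was not called (limma's adjusted p = 0.122). Subtracting the *rpb1-12XCTD* change from the *rpb1-12XS2ACTD* change gave 3.50 (95% interval 2.77 to 4.24, limma's adjusted p = 0.00221). Under limma's trend and robust options the rise in *rpb1-12XS2ACTD* cells lost its call, with an adjusted p of 0.558. The interaction was called for no probe set under these options.

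The other thiamine genes did not rise with it. Of 10 measured genes for thiamine synthesis, uptake and regulation, 1 rose (*nmt1*, 10%) and 2 fell (20%). The shares of all probe sets were 6.13% and 5.37%. The list's median change was −0.13, beside −0.01 over all probe sets. The falls were those of *thi1*, a transcription factor for thiamine-repressible genes, and of *pho4*, a thiamine-repressible acid phosphatase. *thi1* read −0.18, −0.26 and −0.30 with LatA, against 0.42, 0.31 and 0.44 with DMSO, a change of −0.64 ± 0.11 (SE, limma's adjusted p = 0.00182). *pho4* read −0.28, −0.32 and −0.29 with LatA, against 0.56, 0.54 and 0.58 with DMSO, a change of −0.86 ± 0.09 (SE, limma's adjusted p = 0.000272). The arrays of each group lay close together for both genes and did not overlap. The gene *thi4*, for a thiamine synthesis enzyme, was chosen after its value was seen and changed by −0.21 without a call.

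Among the other large rises were members of the list for oxidative stress and metal detoxification. *zym1*, a metallothionein that binds zinc, read 0.88, 0.98 and 1.10 with LatA, against −1.52, −1.35 and −0.82 with DMSO. *cmt1*, for a predicted methyltransferase, read 0.89, 0.74 and 0.78 with LatA, against −1.14, −1.23 and −0.87 with DMSO. In both genes every LatA array stood well above every DMSO array. The related *cmt2* had more spread, with 1.28, 0.28 and 0.76 in LatA treated cells and −2.17, −0.89 and −0.28 in DMSO treated cells, a change of 1.88 ± 0.44 (SE, limma's adjusted p = 0.00793) that missed the threshold in the methods' t-test (adjusted p = 0.092). Over the list of 36 genes for oxidative stress and metal detoxification, 6 rose, or 16.7% against 6.13% of all probe sets, and none fell. The list's median change was 0.10, its quartiles were −0.15 and 0.44, and 16 of the 36 had an adjusted p from limma under 0.05 without regard to fold. Of the 6 that rose, 4 are also CESR-Up genes. *cmt1* and *cmt2* are counted in the 6, though no role of theirs in metal or oxidative stress is given here.

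Of the 15 largest rises, 12 had a single gene name. Besides those above they were *SPBCPT2R1.02*, *SPAC27D7.09c* (with 2 probe sets), *mug147*, *SPCC737.04*, *SPAC4H3.08*, *hri1* and *SPBC215.11c*, with changes from 1.86 to 2.23. Most of these have no role that can be stated here. *hri1* encodes a kinase that phosphorylates the translation initiation factor eIF2α under stress. It read 0.64, 0.36 and 0.51 with LatA, against −1.32, −1.57 and −1.34 with DMSO, a change of 1.92 ± 0.30 (SE, limma's adjusted p = 0.00113). The 2 probe sets of *SPAC27D7.09c* changed by 2.13 and 2.09, and gave nearly the same values on each array. The first of them, like the probe set of *SPBCPT2R1.02*, carries a suffix for probe sets shared by several genes.

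The protein folding genes changed in part. Of 44 genes for chaperones and heat shock proteins, 8 rose, or 18.2%, and none fell, with a median change of 0.10. The largest rises were those of the disaggregase gene *hsp104*, its mitochondrial counterpart *hsp78* and the Hsp70 gene *ssa1*. *hsp104* read 1.01, 0.84 and 0.84 with LatA, against −0.66, −0.07 and −1.10 with DMSO, a change of 1.51 ± 0.29 (SE, limma's adjusted p = 0.00343). *hsp78* read 0.99, 1.00 and 0.82 with LatA, against −0.88, −0.03 and −0.70 with DMSO. The LatA arrays agreed closely in both genes, whereas the DMSO arrays were spread over about 1 log2 unit, with replicate 2 the highest. *ssa1* showed the same spread, with 1.15, 1.08 and 1.05 in LatA treated cells and −0.72, 0.40 and −0.74 in DMSO treated cells, and its rise of 1.44 missed the threshold without DMSO replicate 3 (1.25, limma's adjusted p = 0.0508). The list held 8 calls, 6 of them without DMSO replicate 1, and 5 by the methods' t-test. Only 1 of the 8 is among the CESR-Up genes.

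Trehalose and glycerol genes had a higher median. Trehalose is a storage sugar that protects proteins and membranes under stress. Of 21 genes for trehalose, glycerol and storage carbohydrate, 6 rose (28.6%), none fell, and the median change was 0.39. *tps3*, for a predicted trehalose-phosphate synthase, read 0.71, 0.61 and 0.67 with LatA, against −0.62, −0.10 and −0.57 with DMSO. *ntp1*, the neutral trehalase that breaks trehalose down, read 0.74, 0.68 and 0.71 with LatA, against −0.53, −0.17 and −0.36 with DMSO. The predicted synthase gene and the trehalase gene thus both rose, by 1.09 ± 0.21 and 1.06 ± 0.17 (SE, limma's adjusted p = 0.0031 and 0.00113). *dak2*, for dihydroxyacetone kinase of glycerol breakdown, rose by 1.04.

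Among the regulators of the stress response, *sty1*, the stress-activated MAP kinase, changed by −0.08 and *atf1*, its main transcription factor, by 0.27, and neither was called. Of 31 stress kinases and transcription factors, 4 rose (12.9%, against 6.13% of all probe sets) and 2 fell (6.45%, near the 5.37% of all probe sets), with a median of 0.14. The rises named by the rule were those of the calcium and calmodulin dependent kinase *cmk1* (1.22), the bZIP factor *atf31* (1.15) and the protein phosphatase *ptc1* (0.70). *pyp2*, a tyrosine phosphatase that inactivates Sty1p, fell by 0.85 although it is a CESR-Up gene, and read 0.04, −0.37 and −0.38 with LatA, against 0.86, 0.63 and 0.37 with DMSO. That fall missed the threshold without DMSO replicate 1, DMSO replicate 2, LatA replicate 2 or LatA replicate 3 (limma's adjusted p from 0.0506 to 0.0672), and without DMSO replicate 1 the list held 1 gene that fell.

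Over the CESR as the study listed it, 60 of 136 CESR-Up genes rose (44.1%) and 39 of 104 CESR-Down genes fell (37.5%). The median of the CESR-Up genes on the 3 LatA arrays was 0.28, 0.29 and 0.28, against −0.28, −0.18 and −0.18 on the DMSO arrays. That of the CESR-Down genes was −0.18, −0.22 and −0.26 with LatA, against 0.23, 0.23 and 0.25 with DMSO. The medians on LatA and DMSO arrays did not overlap in either list, and that of the CESR-Up genes was lowest on DMSO replicate 1. The exceptions were 5 CESR-Up genes that fell and 1 CESR-Down gene that rose. Besides *pyp2* the CESR-Up genes were *SPBC1271.08c* (−1.35), *wwm3* (−1.29) and, chosen after their values were seen, *psl1* (−0.82), a cyclin, and *SPAC11D3.01c* (−0.73). The CESR-Down gene was *pfl3*, a flocculin, which read 1.23, 0.95 and 1.08 with LatA, against −0.04, 0.35 and 0.43 with DMSO, a change of 0.84 ± 0.13 (SE, limma's adjusted p = 0.00104).

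**Figure D2:**
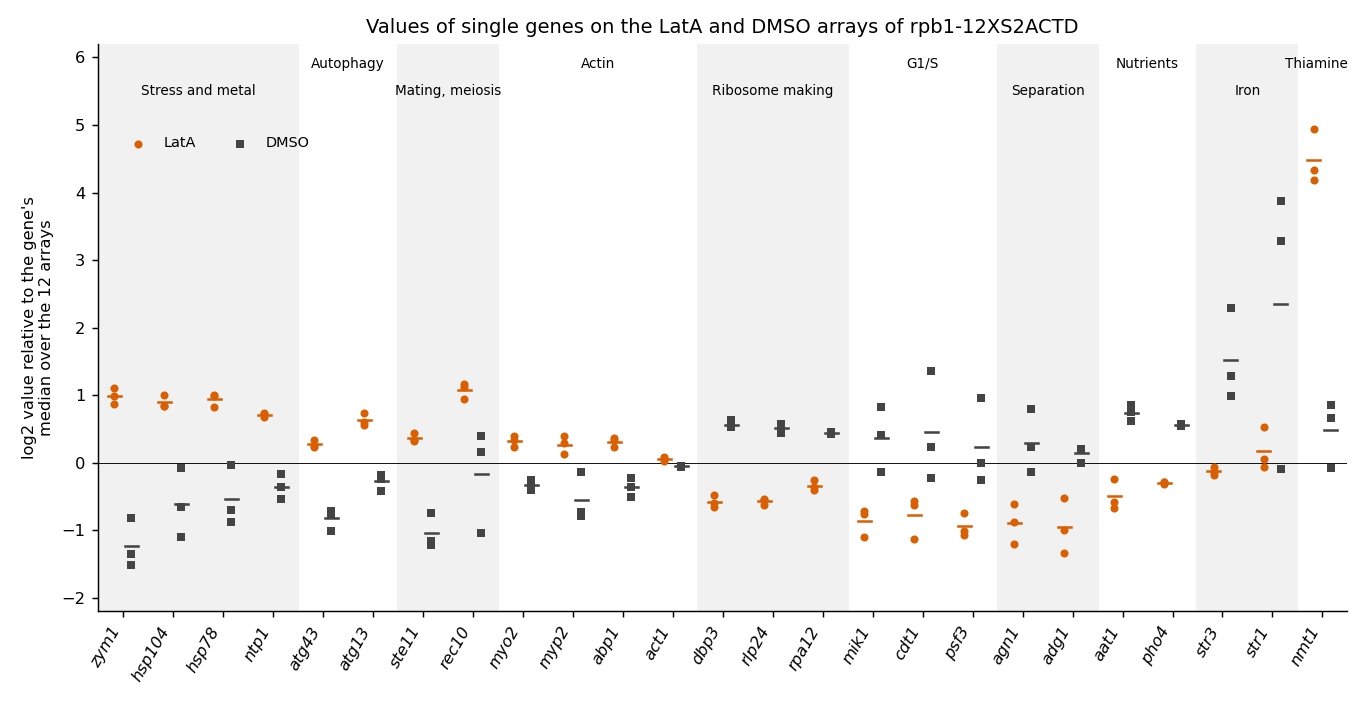
Values of single genes on the 3 LatA arrays (circles) and the 3 DMSO arrays (squares) of rpb1-12XS2ACTD cells, each as log2 minus the gene's median on all 12 arrays, with bars at the group means. The LatA points lie above the DMSO points for the stress, autophagy, mating and thiamine genes and below them for the ribosome, G1/S and separation genes. The lowest DMSO point of str1 lies just below its LatA points.

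Autophagy carries cytoplasm to the vacuole for degradation. Of 36 genes for autophagy and vacuolar proteolysis, 11 rose (30.6%), none fell, and 32 had a change above 0, with a median of 0.44. Only 1 of the 11 is a CESR-Up gene. *atg13*, a subunit of the Atg1p kinase complex that starts the process, read 0.60, 0.74 and 0.55 with LatA, against −0.41, −0.24 and −0.18 with DMSO, a change of 0.91 ± 0.10 (SE, limma's adjusted p = 0.000328). *atg43*, the receptor for the autophagy of mitochondria, read 0.23, 0.34 and 0.25 with LatA, against −0.76, −1.0 and −0.71 with DMSO. In both genes the groups were about 1 log2 unit apart. *atg2402*, for a sorting nexin, rose by 0.94 ± 0.19 (SE, limma's adjusted p = 0.00387). When 1 array was left out the list held from 8 (without LatA replicate 1) to 13 (without DMSO replicate 1) genes that rose. Its median on each array was 0.29, 0.19 and 0.18 with LatA and −0.18, −0.19 and −0.15 with DMSO.

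The proteasome, which degrades ubiquitin-tagged proteins, had small changes, all of them above 0 in value. The 34 changes ran between 0.02 and 0.59, with a median of 0.29, and 26 had an adjusted p from limma under 0.05 without regard to fold. The only gene past 1.5 fold was *rpn1302*, at 0.59, and its change was under 1.5 fold without DMSO replicate 2 (0.58) and without LatA replicate 2 (0.56). Proteasome medians per array were 0.19, 0.09 and 0.17 with LatA, against −0.18, −0.13 and −0.08 with DMSO. Of 40 genes for ubiquitin and SUMO conjugation, 5 rose (12.5%) and 1 fell (2.5%), beside 6.13% and 5.37% of all probe sets. The list's median was 0.23. The genes that rose include *hul5*, a ubiquitin ligase of the proteasome in budding yeast (0.78), and *npl4*, an adaptor of the Cdc48p segregase (0.71).

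**Figure D3:**
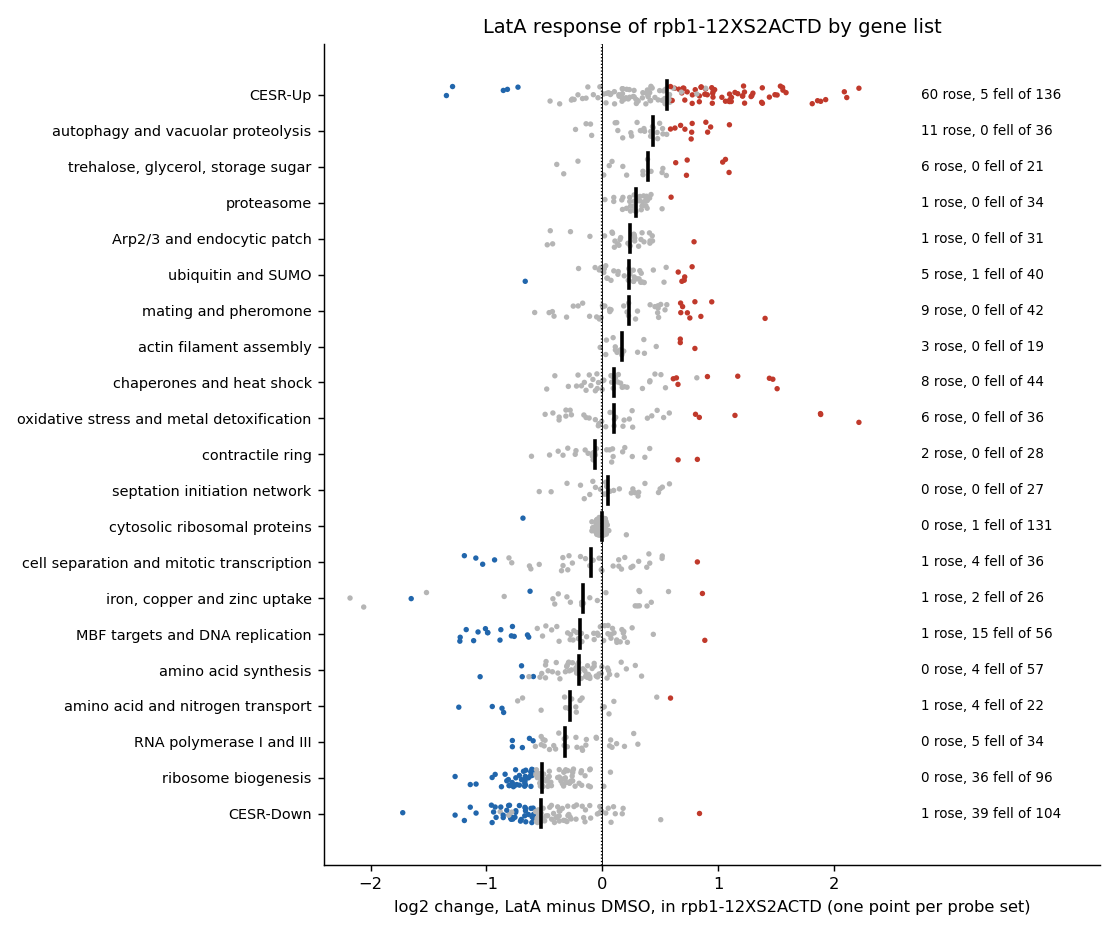
The log2 change (LatA minus DMSO in rpb1-12XS2ACTD cells) of each probe set in 21 gene lists, with red points for those that rose, blue for those that fell, grey for those not called, black bars at the list medians and a dotted line at the median of all probe sets, −0.01. CESR-Up and autophagy genes lie mostly to the right, with medians of 0.56 and 0.44, and ribosome biogenesis and CESR-Down genes mostly to the left, with medians of −0.52 and −0.53.

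The genes that fell were led by those that build ribosomes. Of 96 ribosome biogenesis genes, 36 fell (37.5% against 5.37% of all probe sets), none rose, and 94 had a change below 0, with a median of −0.52. *dbp3*, an RNA helicase of large subunit assembly, read −0.59, −0.48 and −0.65 with LatA, against 0.63, 0.52 and 0.55 with DMSO. *rlp24*, a factor of the immature large subunit, read −0.54, −0.56 and −0.63 with LatA, against 0.57, 0.44 and 0.54 with DMSO. The groups stood about 1 log2 unit apart in both, with changes of −1.14 ± 0.13 and −1.09 ± 0.16 (SE, limma's adjusted p = 0.000363 and 0.000862). *acl4*, a chaperone of the ribosomal protein Rpl4p, read −0.55, −0.49 and −0.89 with LatA, against 0.78, 0.57 and 0.53 with DMSO. The number that fell was 38 without DMSO replicate 1 and 25 without LatA replicate 3. Of the 96 genes, 33 are CESR-Down genes, and of the 36 that fell, 19 are.

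The polymerases that transcribe ribosomal and transfer RNA went the same way. Of 34 genes for RNA polymerase I and III, 5 fell (14.7%) and none rose, with a median of −0.32, and 3 fell without LatA replicate 3. *rpa12*, a subunit of RNA polymerase I, read −0.25, −0.36 and −0.40 with LatA, against 0.43, 0.45 and 0.43 with DMSO, a change of −0.78 ± 0.16 (SE, limma's adjusted p = 0.004). *rpc25*, a subunit of RNA polymerase III, fell by 0.78 as well. The cytosolic ribosomal protein genes did not share this change. Of 131 probe sets for them, 1 fell, none rose, and the interquartile range of their changes lay between −0.03 and 0.02. It was *rpl1603* (−0.69), which missed the threshold without DMSO replicate 1 (−0.55, limma's adjusted p = 0.0623) and without LatA replicate 3 (−0.57, limma's adjusted p = 0.0712).

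Of 22 genes for amino acid and nitrogen transport, 4 fell (18.2%, against 5.37% of all probe sets) and 1 rose, with a median of −0.28. *aat1*, an amino acid transporter, read −0.24, −0.67 and −0.58 with LatA, against 0.86, 0.74 and 0.62 with DMSO, a change of −1.24 ± 0.26 (SE, limma's adjusted p = 0.0052). The ammonium transporter gene *amt1* fell by 0.95 and the peptide transporter gene *ptr2* by 0.87. *SPBC887.17*, for a predicted uracil permease and the largest named fall, read −0.28, −0.54 and −0.50 with LatA, against 1.22, 1.34 and 1.30 with DMSO. Of 57 genes for amino acid synthesis, 4 fell (7.02%) and none rose, with a median of −0.21, a share near that of all probe sets, and the largest of these falls was that of *ser2* (−1.05), for phosphoserine phosphatase. Of 30 genes for purine and pyrimidine synthesis, 1 fell (3.33%, below the share of all probe sets), *ade9*, which read −0.70, −0.74 and −0.83 with LatA, against 0.37, 0.14 and 0.04 with DMSO. *ade9* encodes an enzyme of folate metabolism that supplies purine synthesis.

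Of 14 genes for phosphate uptake, 3 fell (21.4%), 1 rose (7.14%, near the 6.13% of all probe sets) and 10 were not called, with a median of −0.35. The phosphate transporter genes *pho84* (−0.70) and *pho842* (−0.81) fell together with *pho4*, and all 3 are CESR-Down genes. *gde1*, for a glycerophosphodiesterase, rose instead and read 0.57, 0.61 and 0.50 with LatA, against −0.55, −0.46 and −0.83 with DMSO, a change of 1.17 ± 0.18 (SE, limma's adjusted p = 0.00117). Without DMSO replicate 1 the change of *pho84* was under 1.5 fold (−0.51).

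The iron uptake genes turned on single DMSO arrays. *str3*, a transporter of iron-loaded siderophores and heme, read −0.07, −0.18 and −0.14 with LatA, against 0.99, 1.29 and 2.29 with DMSO, a change of −1.65 ± 0.28 (SE, limma's adjusted p = 0.00175). *str1*, a siderophore transporter chosen after its values were seen, had the lowest change of all probe sets and yet was not called. It read 0.52, 0.06 and −0.06 with LatA, against −0.10, 3.28 and 3.87 with DMSO, a change of −2.18 ± 0.98 (SE, limma's adjusted p = 0.11). DMSO replicates 2 and 3 were thus over 3 log2 units above DMSO replicate 1, which lay below all LatA arrays. The ferroxidase gene *fio1* and the iron permease gene *fip1*, also chosen after their values were seen, showed the same split of the DMSO arrays. *fio1* read 0.63, 0.00 and −0.00 with LatA, against −0.02, 3.41 and 3.42 with DMSO. *fip1* read 0.39, 0.04 and 0.11 with LatA, against −0.22, 2.59 and 2.72 with DMSO. Without DMSO replicate 1 the changes of *str1*, *fio1* and *fip1* were −3.40, −3.20 and −2.48, with limma's adjusted p of 0.00911, 0.0141 and 0.0094. In *rpb1-12XCTD* cells these genes were high on DMSO replicate 2 alone (2.66, 2.15 and 1.5), and at most −0.08 on the other DMSO arrays. Over the list of 26 genes for iron, copper and zinc uptake, 1 rose (3.85%) and 2 fell (7.69%), beside 6.13% and 5.37% of all probe sets. Without DMSO replicate 1, 4 of the list fell. The riser was *sib2* (0.86), for an enzyme of siderophore synthesis.

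Genes of the G1/S transition fell as well. The MBF complex drives their transcription once per cell cycle. Of 56 MBF targets and DNA replication genes, 15 fell (26.8%) and 1 rose, with a median of −0.19, and none of the 56 is a CESR gene. *mik1*, a kinase that restrains Cdc2p, read −0.76, −0.71 and −1.11 with LatA, against 0.83, 0.41 and −0.13 with DMSO, a change of −1.23 ± 0.28 (SE, limma's adjusted p = 0.00664). *psf3*, a subunit of the GINS complex of the replication fork, read −0.74, −1.01 and −1.07 with LatA, against 0.95, 0.00 and −0.25 with DMSO. DMSO replicate 1 was the highest array in both, and without it 9 of the list fell. *cdt1*, which licenses replication origins, rested on it most, with −0.56, −0.62 and −1.13 in LatA treated cells and 1.36, 0.23 and −0.23 in DMSO treated cells. Its change of −1.23 ± 0.40 (SE, limma's adjusted p = 0.0374) was −0.77 without DMSO replicate 1 (limma's adjusted p = 0.125) and missed the threshold when DMSO replicate 2 or any LatA replicate was left out (0.0591 to 0.124). The gene that rose was *res2*, a subunit of MBF itself, with 0.62, 0.59 and 0.22 in LatA treated cells, −0.25, −0.56 and −0.42 in DMSO treated cells, and a change of 0.88 ± 0.17 (SE, limma's adjusted p = 0.00292). *ams2*, a transcription factor for histone genes, fell by 1.26 ± 0.22 (SE, limma's adjusted p = 0.00209). In RNA of a whole culture, fewer cells in a phase of the cycle and less RNA per cell cannot be told apart.

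**Figure D4:**
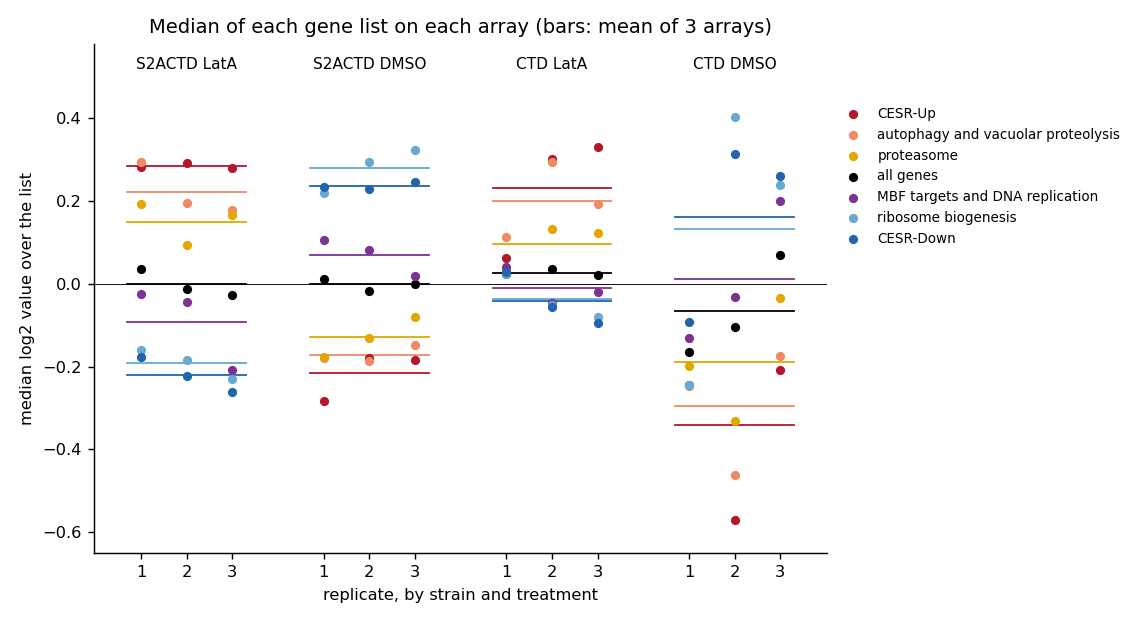
Median log2 value of 7 gene lists on each of the 12 arrays, with bars at the mean of each group of 3. On the 3 LatA arrays of rpb1-12XS2ACTD cells CESR-Up genes lie at 0.28 to 0.29 and ribosome biogenesis genes at −0.23 to −0.16, the order is turned on the 3 DMSO arrays of that strain, and among the DMSO arrays of rpb1-12XCTD cells replicate 1 has a ribosome biogenesis median of −0.24.

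Daughter cells of fission yeast part when glucanases dissolve the septum, and the genes for this step are transcribed late in mitosis. Of 36 genes for cell separation and mitotic transcription, 4 fell (11.1%) and 1 rose, with a median of −0.09. The 4 were *agn1*, the α-glucanase of the septum edge, and *adg1*, *adg2* and *adg3*, the last of which was chosen after its value was seen (−0.93). *agn1* read −0.61, −0.87 and −1.21 with LatA, against 0.79, 0.23 and −0.14 with DMSO, a change of −1.19 ± 0.28 (SE, limma's adjusted p = 0.00856) that missed the threshold in the methods' t-test (adjusted p = 0.0569). *adg1* read −0.52, −1.0 and −1.34 with LatA, against 0.21, 0.21 and 0.00 with DMSO, and *adg2* read −0.56, −0.85 and −0.78 with LatA, against 0.77, 0.34 and −0.20 with DMSO. The fall of *adg1* (−1.09) missed the threshold without DMSO replicate 1, DMSO replicate 2, LatA replicate 2 or LatA replicate 3 (limma's adjusted p from 0.0573 to 0.089). That of *adg2* (−1.03) missed it without DMSO replicate 1 (−0.80, 0.0573) and without LatA replicate 2 (−0.97, 0.0533). The list held 3 calls without DMSO replicate 1 and 2 without LatA replicate 2, as by the methods' t-test.

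For the actin cytoskeleton, the target of the drug, the changes were small. *act1*, the single actin gene, read 0.08, 0.02 and 0.08 with LatA, against −0.05, −0.07 and −0.04 with DMSO. The groups did not overlap, but the change of 0.11 ± 0.06 (SE) was not called (limma's adjusted p = 0.183). Of 19 actin filament assembly genes, 3 rose (15.8%, against 6.13% of all probe sets) and none fell. The median was 0.17, and 18 of the 19 had a change above 0. The 3 that rose were *fus1* (0.80), a formin used in cell fusion, *abp1* (0.67), and *cap1* (0.67), a cyclase-associated protein that binds actin monomers. *abp1* was listed as an actin-binding protein of endocytic patches. It was matched to its probe set by symbol alone, and whether the probe set measures that protein's gene was not checked. *abp1* read 0.33, 0.36 and 0.23 with LatA, against −0.50, −0.36 and −0.23 with DMSO. Of 31 genes for the Arp2/3 complex and endocytic patches, 1 rose past 1.5 fold, *ppk30* (0.79), of a kinase family that acts on endocytic patches. That share, 3.23%, was below the 6.13% of all probe sets. In this list 20 had an adjusted p from limma under 0.05 and the median was 0.24. *aip1*, which helps cofilin to take filaments apart, read 0.07, −0.13 and −0.22 with LatA, against −0.11, −0.76 and −0.80 with DMSO, and the groups overlapped. Its change of 0.47 (limma's adjusted p = 0.0544) was 0.69 without DMSO replicate 1 (limma's adjusted p = 0.00376) and 0.64 with array weights (0.000312), and it was called in both. Among the fits without 1 array its lowest change was 0.345, and limma's adjusted p reached 0.179 without DMSO replicate 3.

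In the cytokinetic ring both type II myosins rose. *myo2*, the essential heavy chain, read 0.33, 0.39 and 0.24 with LatA, against −0.26, −0.41 and −0.33 with DMSO, a change of 0.65 ± 0.10 (SE, limma's adjusted p = 0.00101). *myp2*, the other heavy chain, read 0.39, 0.28 and 0.13 with LatA, against −0.13, −0.78 and −0.74 with DMSO. Its change of 0.82 missed the threshold when DMSO replicate 2 or 3 or LatA replicate 1 or 2 was left out (0.70 to 0.81, limma's adjusted p from 0.0529 to 0.069). These were the only calls among 28 ring genes (7.14% rose, near the 6.13% of all probe sets), whose median was −0.06. None of 27 genes of the septation initiation network (SIN), the kinase cascade that triggers ring constriction, was called by limma or by the methods' t-test. Their median was 0.05, 9 had an unadjusted p under 0.05, and 8 had an adjusted p from limma under 0.05 below 1.5 fold. Of all 4875 probe sets, 2131 had such an unadjusted p and 1625 such an adjusted p at any fold. Limma called 2 of the 27 without DMSO replicate 3, 1 without DMSO replicate 2 and 1 without LatA replicate 2. The polo kinase gene *plo1* changed by 0.31 and the spindle pole gene *cut12* by 0.50, with limma's adjusted p of 0.047 and 0.0172, both under 1.5 fold, and *nsk1* by 0.03. *clp1*, the phosphatase that keeps cells with a damaged ring from entering the next mitosis, changed by −0.44 (limma's adjusted p = 0.00426), also under 1.5 fold. Over the 333 cytokinesis genes listed by the study, 11 rose (3.3%) and 14 fell (4.20%), both shares below those of all probe sets. The largest rise by rule was that of *gid9* (1.00), for a subunit of a ubiquitin ligase, and the largest falls were those of *agn1*, *dad3* (−1.17), for a subunit of the DASH complex at kinetochores, and *adg1*.

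In the cell wall list, *cfh2*, for a regulator of chitin synthase, had the lowest adjusted p after *nmt1* among the genes named here. It read 0.66, 0.48 and 0.60 with LatA, against −0.72, −0.71 and −0.50 with DMSO, a change of 1.23 ± 0.10 (SE, limma's adjusted p = 0.000138). *exg3*, for a glucan glucosidase, rose by 0.95. Of 27 wall glucan genes, 2 rose (7.41%) and 1, *agn1*, fell (3.70%), shares near the 6.13% and 5.37% of all probe sets. In the cell integrity pathway, the MAP kinase cascade that guards the wall, 1 of 19 genes rose (5.26%, near the 6.13% of all probe sets). It was the kinase kinase kinase gene *mkh1* (0.68 ± 0.10, SE, limma's adjusted p = 0.000755).

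Some genes of the sexual cycle rose in these cells, which were of a single mating type and in rich medium. Fission yeast normally mates when starved of nitrogen and in contact with the other mating type. Of 42 probe sets for mating and pheromone genes, 9 rose (21.4%) and none fell, with a median of 0.23. *ste11*, the transcription factor that starts sexual differentiation, read 0.44, 0.33 and 0.32 with LatA, against −0.75, −1.21 and −1.16 with DMSO, a change of 1.41 ± 0.20 (SE, limma's adjusted p = 0.000806). *git5* is counted among the 9, although it encodes the Gβ subunit of the glucose-sensing pathway and is not itself a gene of mating. It read 0.42, 0.29 and 0.37 with LatA, against −0.64, −0.64 and −0.48 with DMSO. Both genes were about 1 log2 unit or more higher with LatA, with no overlap. *ste4*, an adaptor of the pheromone MAP kinase cascade, read 0.51, 0.36 and 0.05 with LatA, against −0.05, −1.02 and −0.56 with DMSO, and its rise of 0.85 missed the threshold in the methods' t-test (adjusted p = 0.114). The 33 genes for meiotic recombination and sporulation had a median of −0.01, so the list as a whole did not shift. Of them, 3 rose (9.09%, against 6.13% of all probe sets). They were *rec10*, for the axis on which recombination starts (1.24), *mcp7*, a partner of the strand exchange machinery (1.11), and *spn7*, a meiotic septin (0.78). *rec10* read 1.12, 1.17 and 0.94 with LatA, against −1.04, 0.16 and 0.39 with DMSO, and DMSO replicate 1 was the lowest by over 1 log2 unit. Its adjusted p in the methods' t-test was 0.109.

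Of the CTD kinase genes, *lsk1* changed by −0.09 and *lsg1* by −0.02, and neither was called. *lsc1*, the cyclin, changed by −0.50 with an adjusted p of 0.00234 from limma, under 1.5 fold. *rpb1* itself changed by 0.16 (limma's adjusted p = 0.389). Of 27 genes for CTD kinases, phosphatases and their partners, 1 fell (3.70%, against 5.37% of all probe sets) and none rose, with a median of −0.04. Without regard to fold, 9 of the 27 had an adjusted p from limma under 0.05, as did 1625 of all 4875 probe sets. The gene that fell was *pct1*, for the RNA triphosphatase that starts the capping of transcripts (−0.69, limma's adjusted p = 0.00303), whose change was under 1.5 fold without DMSO replicate 1 (−0.58).

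The same treatment of *rpb1-12XCTD* cells gave 516 probe sets that rose (10.6%) and 126 that fell (2.58%). The strains' comparisons share no array. Of the probe sets called in *rpb1-12XS2ACTD* cells, 253 rose and 86 fell in both strains, and none was called in opposite directions. Across all probe sets the 2 sets of changes correlated at 0.831 (Pearson's r) and 0.816 (Spearman's rho), as a description, since genes are not independent. The median change over all probe sets was −0.01 in *rpb1-12XS2ACTD* cells and 0.10 in *rpb1-12XCTD* cells. Of the 299 that rose in *rpb1-12XS2ACTD* cells, 297 had a change above 0 in *rpb1-12XCTD* cells (99.3%, against 65.5% of all probe sets), with medians of 0.80 in *rpb1-12XS2ACTD* and 0.85 in *rpb1-12XCTD* cells. Of the 262 that fell, 251 were below 0 in *rpb1-12XCTD* cells (95.8%, against 34.5%), with medians of −0.73 in *rpb1-12XS2ACTD* and −0.45 in *rpb1-12XCTD* cells. These genes were chosen on their *rpb1-12XS2ACTD* values, which favours a larger change in that strain.

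In *rpb1-12XS2ACTD* cells 46 probe sets rose and 176 fell that were not called in that direction in *rpb1-12XCTD* cells. The difference of the 2 LatA changes, *rpb1-12XS2ACTD* minus *rpb1-12XCTD*, is the interaction term of the model. It was called by limma for 1 of the 46 (*nmt1*) and for none of the 176, of which 54 had an unadjusted p under 0.05. No other probe set was called, so the share was 0.0205% of those tested, while 536 of all probe sets had an unadjusted p under 0.05. Without DMSO replicate 3 of *rpb1-12XCTD* the interaction was called for 52 probe sets, 5 higher and 47 lower in *rpb1-12XS2ACTD* cells.

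**Figure D5:**
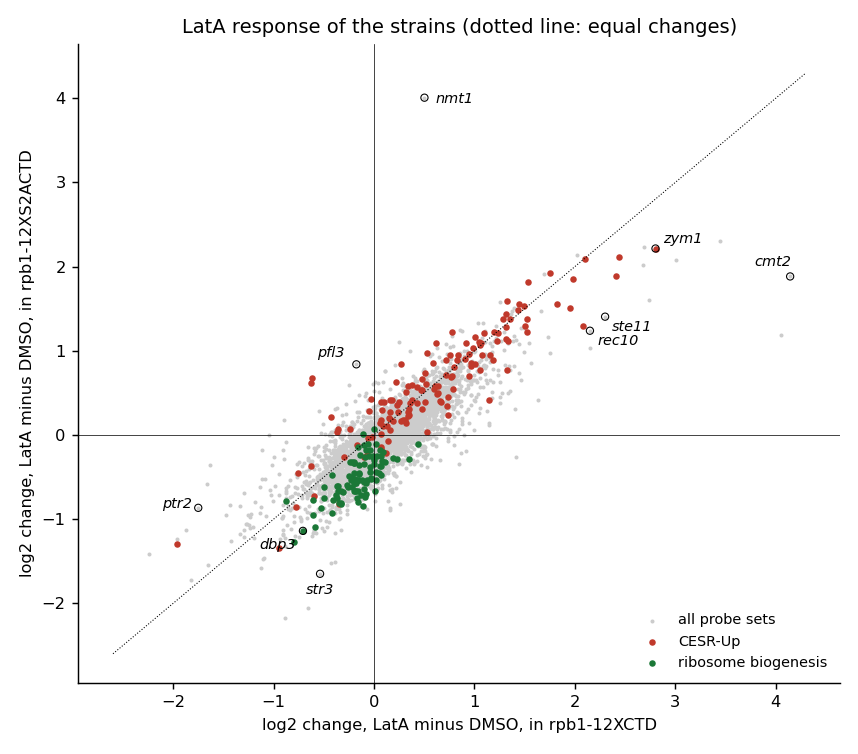
The LatA change of each of 4875 probe sets in rpb1-12XS2ACTD cells (vertical axis, log2) against that in rpb1-12XCTD cells (horizontal axis, log2), with CESR-Up genes in red, ribosome biogenesis genes in green and equal changes on the dotted line. Most points follow the line, nmt1 stands far above it at 4.01 in rpb1-12XS2ACTD and 0.50 in rpb1-12XCTD cells, and the ribosome biogenesis genes lie mostly below it, with medians of −0.52 in rpb1-12XS2ACTD and −0.15 in rpb1-12XCTD cells.

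Several named genes had intervals of the interaction that lay on 1 side of 0 but missed the threshold after adjustment. The difference was −0.90 (95% interval −1.53 to −0.27) for *ste11*, which rose by 1.41 in *rpb1-12XS2ACTD* cells and 2.30 in *rpb1-12XCTD* cells. For *cmt2* it was −2.26 (−3.63 to −0.89), with changes of 1.88 in *rpb1-12XS2ACTD* and 4.14 in *rpb1-12XCTD* cells. These genes and *ptr2* (0.88, 0.51 to 1.26) had the smaller change in *rpb1-12XS2ACTD* cells, and limma's adjusted p was 0.381, 0.328 and 0.193. *pfl3* differed by 1.01 (0.62 to 1.42), with a rise of 0.84 in *rpb1-12XS2ACTD* cells and a change of −0.18 in *rpb1-12XCTD* cells (adjusted p of the interaction from limma, 0.193). *ade9* differed by −0.67 (−1.04 to −0.30), with a fall of 0.94 in *rpb1-12XS2ACTD* cells and a change of −0.27 in *rpb1-12XCTD* cells. For *zym1* (−1.43 to 0.26), *hsp104* (−0.79 to 1.03), *atg13* (−0.26 to 0.36), *myo2* (−0.46 to 0.16) and *act1* (−0.21 to 0.17) the interval held 0.

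Ribosome biogenesis genes had a lower LatA change in value in *rpb1-12XS2ACTD* cells. Their median change was −0.52 in *rpb1-12XS2ACTD* cells and −0.15 in *rpb1-12XCTD* cells, 36 fell in *rpb1-12XS2ACTD* and 5 in *rpb1-12XCTD* cells, and for 92 of the 96 the change was lower in *rpb1-12XS2ACTD* cells. Limma called the interaction for none of them, while 14 had an unadjusted p under 0.05. The list's median was −0.16, −0.18 and −0.23 on the LatA arrays of *rpb1-12XS2ACTD* and 0.22, 0.30 and 0.32 on its DMSO arrays. In *rpb1-12XCTD* cells it was 0.02, −0.05 and −0.08 with LatA, against −0.24, 0.40 and 0.24 with DMSO, so DMSO replicate 1 of that strain stood apart. Without that array, a choice made after seeing the data, the *rpb1-12XCTD* median was −0.36 and 82 of the 96 were lower in *rpb1-12XS2ACTD* cells. Leaving out DMSO replicate 2 or 3 of *rpb1-12XCTD* gave medians of −0.06 and −0.08.

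Other lists had fewer rises in *rpb1-12XS2ACTD* than in *rpb1-12XCTD* cells. Mating and pheromone genes rose in 9 of 42 probe sets in *rpb1-12XS2ACTD* cells and in 20 in *rpb1-12XCTD* cells, with medians of 0.23 in *rpb1-12XS2ACTD* and 0.46 in *rpb1-12XCTD* cells. Among 34 probe sets for heterochromatin and RNA interference genes, none was called in *rpb1-12XS2ACTD* cells by limma or by the methods' t-test. Of the 34, 10 had an unadjusted p under 0.05, beside 2131 of all 4875 probe sets, and 2 were called by limma without DMSO replicate 1. In *rpb1-12XCTD* cells 7 of the 34 rose and 1 fell, and the medians were 0.12 in *rpb1-12XS2ACTD* and 0.38 in *rpb1-12XCTD* cells. Limma called the interaction for no gene of these lists, while 12 mating and 6 heterochromatin probe sets had an unadjusted p under 0.05, and the medians of all probe sets differed in the same direction. Autophagy (0.44 and 0.48), proteasome (0.29 and 0.30) and trehalose and glycerol genes (0.39 and 0.32) had medians in *rpb1-12XS2ACTD* and *rpb1-12XCTD* cells within 0.1 of each other.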

How the data were processed

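RNA was measured on Affymetrix Yeast Genome 2.0 arrays. The authors normalized the arrays by RMA (version not given in the sources used here), and deposited them on the log2 scale. Every probe set has a median of 0 on the 12 arrays, so some centring took place that the sources do not describe, and neither level nor signal over background was kept. With no read depth on arrays, the 3 replicates per group limit the precision. The amount of RNA labelled is not given here because the sources differ.

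All 12 arrays entered 1 linear model of the 4 groups in limma 3.58.1 in R 4.3.3 (figures and names with Python 3.11.15). It gave the LatA change of each strain and the difference of the 2 changes, the interaction. Thresholds followed the study's methods, an adjusted p under 0.05 and over 1.5 fold. The fit was tested on simulated data. All 4875 probe sets stayed in every test. Names came from the study's supplementary lists (2584) and the array annotation (1337), and 954 probe sets had no single name and are counted but not named. The CESR, stress response and cytokinesis lists are the study's, taken for their members alone, and the other lists were written from textbook knowledge. Members and lists were chosen with earlier results of these data known.

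Genes named are the 15 largest rises and 15 largest falls called with non-overlapping arrays, up to 3 called members per list and direction, 12 fixed genes and the called interactions. Any other is said to be chosen after its value was seen. Alternatives were the 6 arrays alone, quantile normalization, median centring, array weights, a block for the replicate number, the trend and robust options of limma, the methods' t-test (adjusted or not), other fold thresholds, and leaving out either each array or the probe sets shared by several genes. The labels and methods call the arrays biological replicates. In the main fit SEs and p-values rest on the spread between replicates pooled over the 4 groups and moderated by limma across genes. They do not rest on the 3 arrays of each compared group alone.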

Additional observations from a re-analysis of the deposited data

Results flagged for a closer look

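The LatA effect on *nmt1* differed between the strains by the test of the difference itself. It was 4.01 in *rpb1-12XS2ACTD* cells and 0.50 in *rpb1-12XCTD* cells on the log2 scale. The difference was 3.50 ± 0.33 (SE, n = 3 arrays in each of 4 groups), with an adjusted p of 0.00221 from limma over all probe sets. With limma's trend and robust options the interaction was called for no gene, *nmt1* included. In *rpb1-12XS2ACTD* cells all 3 LatA arrays lay above all 3 DMSO arrays.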

How the results depend on the processing

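Calls in *rpb1-12XS2ACTD* cells numbered 561 (299 that rose, 262 that fell), and 1625 (846 and 779) with no fold threshold and 125 (86 and 39) at over 2 fold. Of the CESR genes 105 were called, 160 with no fold threshold and 42 at over 2 fold. CESR-Up genes that rose numbered 60, and 35 at over 2 fold, and CESR-Down genes that fell 39, 69 with no fold threshold and 5 at over 2 fold. All other settings kept these counts within 1.5 times. They were 580 calls with the 6 arrays alone, 489 by the methods' t-test (559 unadjusted), 573 with array weights, 567 with median centring and 609 with quantile normalization. Leaving out 1 array gave 490 to 584 calls, 262 to 318 that rose, 181 to 273 that fell, 94 to 107 CESR calls, 56 to 62 CESR-Up rises and 30 to 40 CESR-Down falls. The interaction, called once, was called 0 times with limma's trend and robust options and 19 times (11 higher, 8 lower) after quantile normalization. Leaving out 1 array gave 1 to 52 interaction calls, 1 to 5 higher and 0 to 47 lower, with the most without DMSO replicate 3 of *rpb1-12XCTD*. The cause was not tested.

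With the replicate number as a block there were 556 calls (300 and 256) on the 12 arrays and 574 on the 6, and the interaction stayed at 1. On the 6 arrays *cmt2* (adjusted p = 0.0591 in limma) and *rec10* (0.0509) were not called with the block, and on the 12 arrays cell separation calls went to 9 and cell wall calls to 5. Deviations of LatA and DMSO arrays with the same number correlated at 0.15, 0.07 and 0.23, and each array correlated better with the array of its own number than with the others (−0.17 to 0.04). This is a hint from the data, not the design, and the arrays were not treated as pairs. No called direction of a named gene turned under any setting run. Of 113 called probe sets that the naming rule took, 5 of them without a single gene name, the methods' t-test kept 91 and the absence of DMSO replicate 1 kept 92. No filter for dim probe sets could be run, since the values keep no level, and quantile and median centring acted on values already centred.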

Other observations

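In *rpb1-12XS2ACTD* cells 5 of 38 probe sets for hexose transport and central carbon rose (13.2%, against 6.13% of all probe sets) and 2 fell (5.26%, near the 5.37% of all probe sets), with a median of 0.06. *mal1*, for an α-glucosidase, rose by 1.03 ± 0.24 (SE, limma's adjusted p = 0.00845), and *adh4*, for an alcohol dehydrogenase, fell by 0.98 ± 0.17 (SE, limma's adjusted p = 0.00222). The list held 4 calls without DMSO replicate 1, LatA replicate 1 or LatA replicate 3, and by the methods' t-test. Of 48 respiratory chain and ATP synthase genes, 1 rose (2.08%) and none fell, and the median was 0.17. It was *ndi1* (0.65, limma's adjusted p = 0.017), for a NADH dehydrogenase, and no gene of the list was called by the methods' t-test, without DMSO replicate 1 or without LatA replicate 2.

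In sterol synthesis 1 of 28 genes rose (3.57%) and 2 fell (7.14%), beside 6.13% and 5.37% of all probe sets, with a median of −0.02. *hmg1*, for HMG-CoA reductase, read −0.72, −0.77 and −0.77 with LatA, against 0.31, 0.15 and 0.08 with DMSO, a change of −0.93 ± 0.09 (SE, limma's adjusted p = 0.00023). *dsc1*, a subunit of the ligase complex that activates the sterol-responsive factor Sre1p, rose by 0.74. The groups did not overlap for either gene.

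Of 98 *meu* and *mug* genes, which were named for their transcription in meiosis, 11 rose (11.2%) and 5 fell (5.10%), with a median of 0.05. *mug35* read 1.02, 1.08 and 1.09 with LatA, against −0.71, −0.30 and −0.27 with DMSO, and *mug150* read −0.39, −0.58 and −0.63 with LatA, against 0.65, 0.49 and 0.65 with DMSO. Of the 11 that rose, 4 are CESR-Up genes. Of 72 subtelomeric probe sets, 9 rose (12.5%) and 9 fell (12.5%), with a median of −0.18, and 12 were called without LatA replicate 3. Of 17 flocculin and adhesin genes, 3 rose (17.65%) and 1 fell (5.88%), beside 6.13% and 5.37% of all probe sets. Without DMSO replicate 1 only 1 of the 17 was called.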
